A study of Mus musculus with 9 samples.

Results

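The mitochondrial ribosomal protein genes were taken as the rows of the count table whose symbol starts with Mrpl or Mrps, followed by a number and at most a letter from a to c, which gave 78 of 24505 genes. By symbol, 49 were Mrpl genes and 29 were Mrps genes. By the place of the protein in the ribosome, 50 were assigned to the large subunit and 25 to the small subunit, and 3 (Mrps28, Mrps36 and Mrpl55) were left unassigned. Mrps18a and Mrps30 are proteins of the large subunit in spite of their symbols. Of the assigned members, 46 have a counterpart in bacterial ribosomes and 29 belong to mitochondria alone.

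Mitochondria carry their own ribosomes, which translate the few mRNAs of mitochondrial DNA into core subunits of the respiratory chain and of ATP synthase. The rRNAs of these ribosomes are made in the organelle, but every one of their proteins is encoded in the nucleus, translated by cytosolic ribosomes and imported. Cytosolic ribosomal proteins (Rpl and Rps genes) are a separate family and were set beside the mitochondrial one. The mRNAs of mitochondrial DNA were not analysed here.

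RNA was measured in 3 groups of EGFP-positive germ cells sorted from testes of Uchl1-eGfp mice on a C57BL/6 background outcrossed with CD-1, with 3 libraries in each. In/B spermatogonia were EGFP bright cells taken at P17, and RA-sufficient preleptotene spermatocytes (PL) and RA-deficient PL were EGFP dim cells taken at P19. All 3 groups had been synchronized in the same way, with the RA synthesis inhibitor WIN 18,446 (100 µg/g, daily from P1) followed at P11 by an injection of RA in DMSO (10 µl at 10 µg/µl). RA-deficient mice were kept on WIN 18,446 every day until the testes were taken, and RA-sufficient mice were not. The sources give P10 in 1 place and P11 in another as the last day of the first course. The transgene drives EGFP from the Uchl1 promoter, cells of littermates were pooled, and age, EGFP gate and stage differ together between In/B and PL, so their parts cannot be told apart.

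The libraries held between 12612959 and 27042274 counts, and a count of 3 corresponded to 0.111 to 0.238 CPM, a gene's counts scaled to a common library size. Germ cell markers (Ddx4, Dazl, Mael and Uchl1) summed to 4400 to 5564 CPM in In/B, 2272 to 2630 CPM in RA-sufficient PL and 4266 to 5282 CPM in RA-deficient PL. RA-sufficient PL thus lay below all other libraries in this sum. Between RA-sufficient PL and In/B, Mael was higher (log2 fold change 0.39), Dazl was not called (−0.005) and Ddx4 was lower (−0.32). Uchl1, whose promoter drives the EGFP used for sorting, fell most (−2.38). The 7 Sertoli cell markers measured summed to 57.8 to 302 CPM in In/B, 2297 to 3151 CPM in RA-sufficient PL and 251 to 434 CPM in RA-deficient PL, and none of them was at 0 in all libraries of a group. All 7 of 7 were higher in RA-sufficient PL than in In/B, and 7 of 7 were lower in RA-deficient than in RA-sufficient PL. The 4 spermatogonia markers (Kit, Dmrt1, Sohlh1 and Sohlh2) summed to 988 to 1301 CPM in In/B, 145 to 171 CPM in RA-sufficient PL and 255 to 1303 CPM in RA-deficient PL, the low end being RA-deficient replicate 3. The 5 preleptotene markers (Stra8, Rec8, Dmc1, Sycp1 and Sycp3) summed to 480 to 901 CPM in In/B, 1997 to 2506 CPM in RA-sufficient PL and 2245 to 2712 CPM in RA-deficient PL. Of the 5, 3 were called higher and 0 lower in each PL group than in In/B. The lowest log2 fold change among them was −0.92 in RA-sufficient and −1.32 in RA-deficient PL, so they did not all rise. Markers of Leydig cells (6 genes) reached at most 38.2 CPM with Insl3 at 0 in In/B and RA-deficient PL, those of peritubular cells (6 genes) 112 CPM, and those of blood cells and macrophages (6 genes) 8.53 CPM with Hbb-b1 and Hba-a1 at 0 throughout. RA-deficient replicate 3 stood apart, with a correlation of log CPM of 0.892 and 0.891 with replicates 1 and 2, which correlated at 0.947 with each other. Every member passed the filter on low counts in each comparison, so the counts and medians given for members cover all 78.

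Summed over the 78 genes, mitochondrial ribosomal protein mRNA was at 3474 ± 182 CPM (SD, n = 3) in In/B, 2456 ± 215 CPM in RA-sufficient PL and 2475 ± 94.3 CPM in RA-deficient PL. The libraries of either PL group (2327 to 2704 CPM, and 2367 to 2539 CPM) did not overlap with those of In/B (3266 to 3604 CPM), whereas the 2 PL groups overlapped. The overlap of the PL groups depended on the scaling between libraries (TMM). As a percentage of all counts, the sum was 0.338 to 0.383 in In/B. It was 0.245 to 0.283 in RA-sufficient PL and 0.212 to 0.234 in RA-deficient PL, where every library was lower than in RA-sufficient PL. The cytosolic family followed another order. Its 79 genes summed to 19700.0 ± 2636 CPM in In/B, 9618 ± 1637 CPM in RA-sufficient PL and 14710.0 ± 631 CPM in RA-deficient PL. The ratio of cytosolic to mitochondrial ribosomal protein mRNA was 5.66 ± 0.499 in In/B and 5.94 ± 0.113 in RA-deficient PL, which overlapped, and 3.90 ± 0.342 in RA-sufficient PL, where all 3 libraries (3.54 to 4.23) were below all others (5.24 to 6.21). Within the mitochondrial family the sum for the large subunit was 1.91 ± 0.0812 times that for the small subunit in In/B, 2.32 ± 0.130 times in RA-sufficient PL and 2.02 ± 0.0588 times in RA-deficient PL. These sums were not tested. The sums in CPM are TMM-scaled levels in sorted bulk RNA, in which fewer cells of a type and less RNA per cell cannot be told apart.

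**Figure D1:**
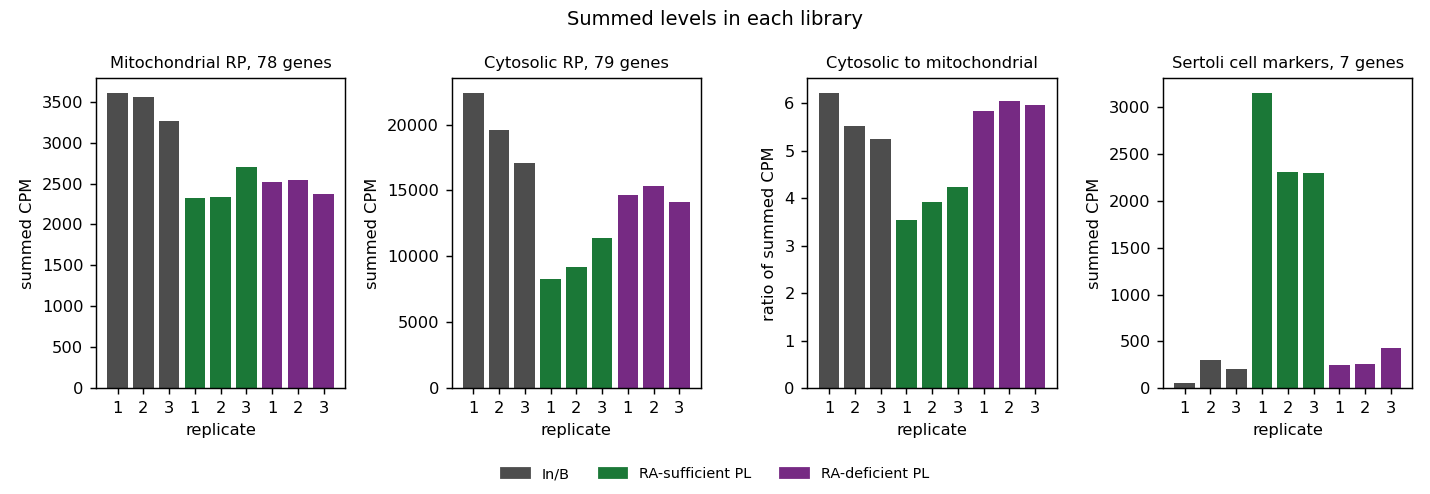
Summed CPM of the 78 mitochondrial and 79 cytosolic ribosomal protein (RP) genes, their ratio, and the summed CPM of 7 Sertoli cell markers, with 1 bar for each of the 9 libraries. The cytosolic to mitochondrial ratio was 3.54 to 4.23 in RA-sufficient PL and 5.24 to 6.21 in the other 6 libraries, and Sertoli cell markers were highest in RA-sufficient PL (2297 to 3151 CPM).

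Per kilobase of annotated exon, members spanned a wide range, with a median over genes of 16.6 CPM per kb as the mean of 9 libraries. Mrpl42, a large subunit protein found in mitochondria alone, was the highest at 119 CPM per kb. It was at 128, 121 and 111 CPM in In/B, 71.3, 55.9 and 53.9 CPM in RA-sufficient PL and 62.2, 75.5 and 36.7 CPM in RA-deficient PL, so that both PL groups lay below In/B. Mrpl23, whose bacterial counterpart borders the tunnel through which new proteins leave the ribosome, was the lowest at 1.34 CPM per kb.

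The first comparison asked what changed as In/B spermatogonia became preleptotene spermatocytes with RA available. Of the 78 members, 40 (51.3%) were lower and 8 (10.3%) were higher in RA-sufficient PL than in In/B at an adjusted p below 0.05 (edgeR's quasi-likelihood test, Benjamini-Hochberg adjustment over all genes), against 31.2% lower and 33.8% higher among the 15001 genes tested. With the added requirement of a change above 2-fold, 14 were lower and 1 was higher, where 19.3% and 26.1% of all genes tested were. The median log2 fold change was −0.49 over members and 0.04 over all genes tested. Both subunits took part, with 25 of 50 large subunit genes lower and 7 higher, and 14 of 25 small subunit genes lower and 1 higher. Genes with a bacterial counterpart had 23 of 46 lower and 6 higher, and genes of mitochondria alone had 16 of 29 lower and 2 higher. Sertoli cell markers rose in the same libraries (7 of 7). The summed germ cell markers were lower there, with Uchl1, whose promoter drives the EGFP used for sorting, falling most (log2 fold change −2.38). Ddx4 was lower (−0.32), Dazl was not called (−0.005) and Mael was higher (0.39). The part of these markers in the differences was not tested.

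The decrease was led by 2 proteins of the small subunit and 1 of the large. Mrps2, the counterpart of a bacterial small subunit protein (chr2:28323586-28326698, mm9, plus strand), was at 149.7, 155 and 155 CPM in In/B, 36.3, 35.9 and 30.9 CPM in RA-sufficient PL and 70.9, 49.6 and 38.2 CPM in RA-deficient PL. The 3 groups did not overlap, with In/B highest and RA-sufficient PL lowest. The level in RA-sufficient PL was 4.32-fold lower than in In/B (log2 fold change −2.11, SE 0.124, adjusted p = 1.098e-05).

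Mrpl28, a large subunit protein (chr17:26260465-26263558, mm9, plus strand), was at 102, 97.5 and 85.1 CPM in In/B, 23.4, 19.3 and 21.8 CPM in RA-sufficient PL and 42.1, 45.8 and 25.3 CPM in RA-deficient PL. It kept the order of Mrps2 and was 4.28-fold lower in RA-sufficient PL than in In/B (log2 fold change −2.10, SE 0.148, adjusted p = 1.602e-05). Mrps24, a small subunit protein (chr11:5603986-5615683, mm9, minus strand), was at 34.7, 41.5 and 33.4 CPM in In/B, 8.77, 5.72 and 10.3 CPM in RA-sufficient PL and 12.5, 17.7 and 8.74 CPM in RA-deficient PL. Here RA-deficient replicate 3 lay within the RA-sufficient range. The difference between RA-sufficient PL and In/B was 4.27-fold (log2 fold change −2.10, SE 0.251, adjusted p = 0.000148), and 15.4% of the exon bases of Mrps24 are shared with Urgcp on the same strand.

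The other 5 of the 8 members with the lowest fold changes were Mrpl23 (−1.56), Mrps26 (−1.55), Mrpl15 (−1.52), Mrpl22 (−1.34) and Mrps22 (−1.31, all log2). Mrps26 and Mrps22 are small subunit proteins of mitochondria alone, and the others are large subunit proteins with bacterial counterparts. Mrps26 was at 34.3, 34.7 and 32.7 CPM in In/B and 13.6, 8.80 and 11.4 CPM in RA-sufficient PL. In RA-deficient PL it was at 28.2, 31.6 and 13.5 CPM, with replicates 1 and 2 close to In/B and replicate 3 at the level of RA-sufficient PL.

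The 8 members that rose in RA-sufficient PL were Mrps18a (1.65), Mrpl1 (0.99), Mrps6 (0.94), Mrpl48 (0.90), Mrpl39 (0.70), Mrpl20 (0.69), Mrpl3 (0.39) and Mrpl17 (0.35, all log2), of which all but Mrps6 belong to the large subunit. The calls of Mrpl3 and Mrpl17 were lost under 9 of 13 alternatives each, among them the omission of any library but RA-sufficient replicate 1. Mrpl1 corresponds to the bacterial protein of the mobile stalk at the side from which tRNA leaves. It was at 16.8, 23.9 and 23.0 CPM in In/B and 37.6, 38.4 and 46.0 CPM in RA-sufficient PL, with no overlap. The small subunit protein Mrps6 was at 22.8, 17.1 and 16.3 CPM in In/B and 34.7, 34.8 and 35.0 CPM in RA-sufficient PL. Of its exon bases 43.8% are shared with Slc5a3 on the same strand, which was at 55.2 to 71.7 CPM in In/B and 55.6 to 69.9 CPM in RA-sufficient PL.

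Mrps18a, Mrps18b and Mrps18c encode 3 paralogs that descend from the same bacterial small subunit protein, and only the first is built into the large subunit. Mrps18a (chr17:46247935-46265859, mm9, plus strand) was at 15.0, 14.6 and 10.7 CPM in In/B, 43.2, 34.3 and 44.9 CPM in RA-sufficient PL and 18.3, 10.6 and 28.9 CPM in RA-deficient PL. It rose 3.13-fold in RA-sufficient PL (SE 0.207 on the log2 scale, adjusted p = 0.00019), while RA-deficient PL overlapped with In/B (log2 difference 0.64, adjusted p = 0.224). Mrps18b (chr17:36047324-36053334, mm9, minus strand) went the other way.

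It was at 44.9, 34.3 and 35.3 CPM in In/B, 19.3, 21.0 and 21.4 CPM in RA-sufficient PL and 18.3, 19.8 and 24.0 CPM in RA-deficient PL. Both PL groups were lower, by log2 differences of −0.85 (adjusted p = 0.00304) and −0.76 (adjusted p = 0.0244), the second of which was lost without any library but RA-deficient replicate 3. Mrps18c (chr5:101227646-101233490, mm9, plus strand) was at 28.9, 26.7 and 28.6 CPM in In/B, 20.4, 20.4 and 26.1 CPM in RA-sufficient PL and 26.1, 14.7 and 15.1 CPM in RA-deficient PL. Neither PL group passed the test for Mrps18c (log2 differences −0.29 and −0.46), although RA-deficient PL did without its replicate 1 (−0.81). Per kilobase, Mrps18c was the highest of the 3 in In/B (26.1 CPM per kb, against 18.3 for Mrps18b and 3.65 for Mrps18a), and in RA-sufficient PL Mrps18a (11.1) was above Mrps18b (9.84).

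The promoter windows of the 3 paralogs are shown because the genes share descent and differ in direction. The windows run from 250 bases before to 50 bases after the RefSeq start (GRCm38.p6, a later build than the mm9 of the counts), at chr17:46110754-46111053 on the plus strand, chr17:35916391-35916690 on the minus strand and chr5:100798509-100798808 on the plus strand. Capitals mark matches, on either strand, to the motifs searched. These were the NRF1 core GCATGCGC, the ETS motif of GABPA type CCGGAAGT, the YY1 motif AAGATGGC, a GC box of SP1 type GGGGCGGGG, the E-box CACGTG and a STRA8-associated motif CNCCTCAG.
Mrps18a: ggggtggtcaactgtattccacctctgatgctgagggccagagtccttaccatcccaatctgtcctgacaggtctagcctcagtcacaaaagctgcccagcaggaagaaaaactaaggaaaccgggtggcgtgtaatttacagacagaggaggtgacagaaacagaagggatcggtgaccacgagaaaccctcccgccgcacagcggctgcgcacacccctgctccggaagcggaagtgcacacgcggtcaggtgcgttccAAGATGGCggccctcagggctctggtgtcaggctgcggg
Mrps18b: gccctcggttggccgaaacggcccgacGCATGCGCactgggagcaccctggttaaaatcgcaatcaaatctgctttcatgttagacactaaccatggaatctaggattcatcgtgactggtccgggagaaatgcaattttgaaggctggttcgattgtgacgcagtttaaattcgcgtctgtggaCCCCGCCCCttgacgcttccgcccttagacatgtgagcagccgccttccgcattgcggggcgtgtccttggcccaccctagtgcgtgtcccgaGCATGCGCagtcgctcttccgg
Mrps18c: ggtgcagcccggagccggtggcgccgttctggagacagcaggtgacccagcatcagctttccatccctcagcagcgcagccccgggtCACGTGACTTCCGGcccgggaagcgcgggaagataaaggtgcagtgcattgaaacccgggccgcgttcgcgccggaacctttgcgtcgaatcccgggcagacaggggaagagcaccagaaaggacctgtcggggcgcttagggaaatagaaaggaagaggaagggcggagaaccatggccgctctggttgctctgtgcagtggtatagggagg
Mrps18a held a YY1 match, Mrps18b 2 NRF1 matches and a GC box, and Mrps18c an E-box that directly adjoins an ETS match.

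NRF1, GABPA and YY1 are known regulators of nuclear genes for mitochondrial proteins. A window was found for 69 of the 78 members. The NRF1 core was in 8 of these (11.6%, against 3.05% of the 27025 genes with a window), the ETS motif in 12 (17.4%, against 4.31%), the YY1 motif in 12 (17.4%, against 3.19%) and the GC box in 13 (18.8%, against 12.9%). At least 1 of the NRF1, ETS and YY1 motifs was in 29. The share of all genes with at least 1 of them was not counted, so it is not known whether 29 is unusual. Of the 58 cytosolic ribosomal protein genes with a window, 3 held the NRF1 core (5.17%) and 11 the ETS motif. The YY1 motif was in 6 of them (10.3%) and the GC box in 4 (6.9%). The ETS motif was thus more frequent in the cytosolic family than among members (17.4%), so its excess over all genes was not particular to members. The NRF1 core, the YY1 motif and the GC box were less frequent there than among members. These shares were not tested. Among members, the E-box was in 5 (7.25%, against 8.09%) and the STRA8-associated motif in 6 (8.7%, against 9.12%). Between RA-sufficient PL and In/B, the median log2 fold change was 0.09 for members with an NRF1 core and −0.48 for those without. It was −0.09 and −0.48 with and without the ETS motif, and −0.83 and −0.32 with and without the GC box. For the YY1 motif it was −0.366 and −0.485, for the E-box −0.1 and −0.492, and for the STRA8-associated motif −0.502 and −0.412. These medians were not tested, and a match is no evidence that a factor binds there.

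Mrps24 and the pair Mrps11 and Mrpl46 are shown for their neighbourhood. The window of Mrps24 (chr11:5707652-5707951 on the minus strand), the gene with the third lowest fold change, held a STRA8-associated motif, a GC box and a YY1 match. Mrps11 and Mrpl46 lie head to head on chromosome 7, and their RefSeq starts are 42 bases apart, so the window of Mrps11 (chr7:78782881-78783180 on the plus strand) also holds the start of Mrpl46. It held a YY1 match.
Mrps24: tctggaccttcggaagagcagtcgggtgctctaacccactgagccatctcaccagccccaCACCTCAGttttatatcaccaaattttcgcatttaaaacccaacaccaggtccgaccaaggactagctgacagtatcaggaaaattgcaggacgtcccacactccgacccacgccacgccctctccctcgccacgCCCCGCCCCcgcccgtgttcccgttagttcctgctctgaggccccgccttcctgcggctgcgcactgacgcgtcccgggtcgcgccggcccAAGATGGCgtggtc
Mrps11: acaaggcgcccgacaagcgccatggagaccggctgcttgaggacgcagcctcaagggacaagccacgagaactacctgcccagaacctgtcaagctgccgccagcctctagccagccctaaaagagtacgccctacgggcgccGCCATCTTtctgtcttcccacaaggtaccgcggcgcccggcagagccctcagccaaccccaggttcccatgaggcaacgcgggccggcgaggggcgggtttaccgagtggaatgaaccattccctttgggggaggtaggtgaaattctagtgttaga
The pair was chosen after the values were seen, and the difference between its fold changes was not tested. Mrps11, of the small subunit, was at 38.1, 29.9 and 31.2 CPM in In/B and 31.0, 37.4 and 42.5 CPM in RA-sufficient PL, which overlapped (log2 difference 0.21, adjusted p = 0.345). Mrpl46, of the large subunit, was at 59.6, 45.6 and 49.3 CPM in In/B and 35.4, 36.8 and 40.3 CPM in RA-sufficient PL, and was lower there (log2 fold change −0.41, adjusted p = 0.0474). In RA-deficient PL neither was called against In/B (log2 differences 0.15 for Mrps11 and −0.20 for Mrpl46). Exons of the 2 genes overlap on opposite strands (8.0% of the bases of Mrps11 and 12.4% of Mrpl46), and whether counting used strand is not given in the sources used here.

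**Figure D2:**
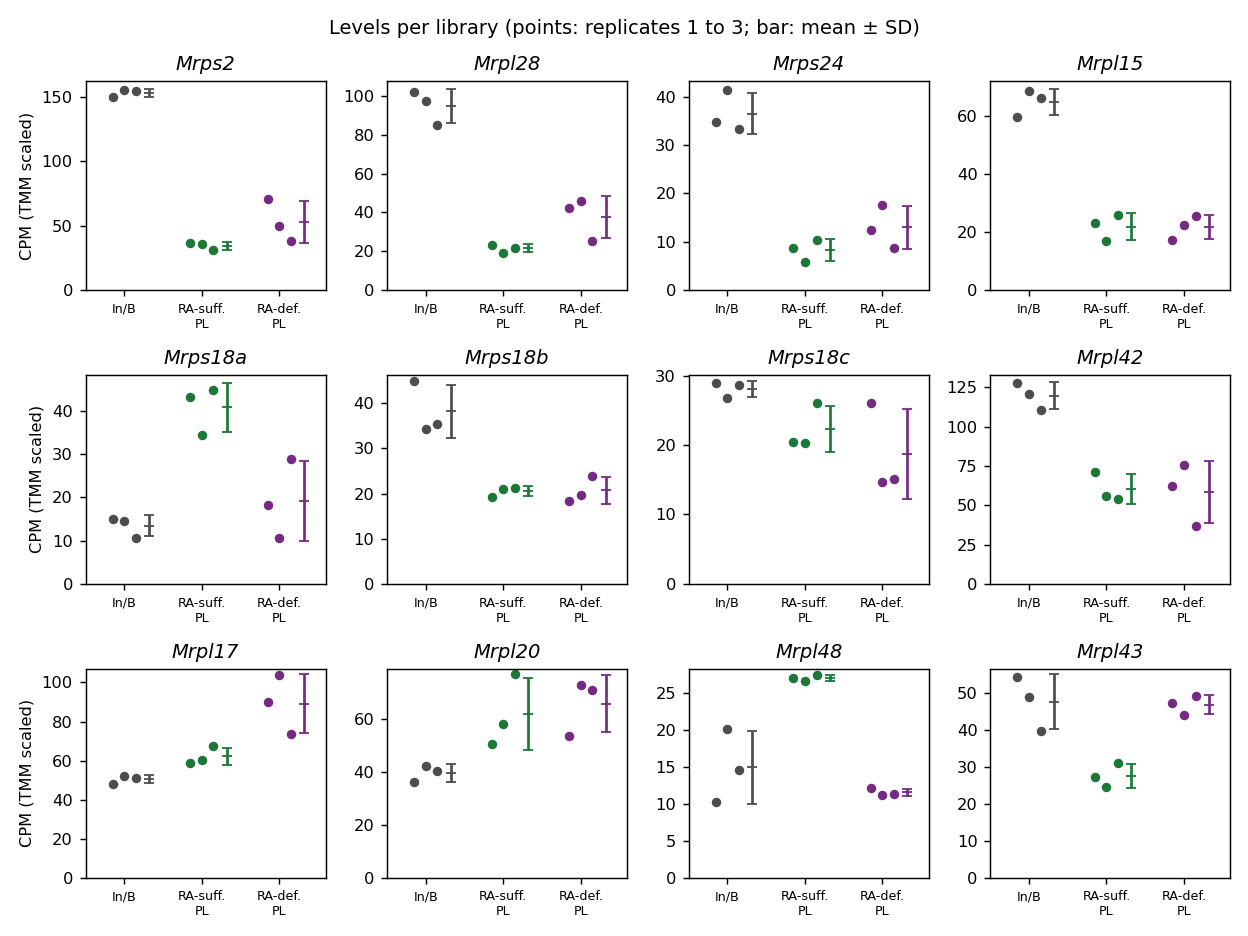
CPM (TMM scaled) of 12 members in the 9 libraries. Points are replicates 1 to 3 of a group and bars the mean ± SD of 3 libraries. Mrps2 fell from 153 CPM in In/B to 34.4 CPM in RA-sufficient PL on average, while Mrps18a rose from 13.5 to 40.8 CPM.

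The second comparison asked the same of preleptotene spermatocytes that lacked RA. In RA-deficient PL, 26 members (33.3%) were lower and 5 (6.41%) were higher than in In/B, against 18.3% lower and 18.4% higher of 14877 genes tested. The median log2 fold change was −0.42 over members and 0.00 over all genes tested. Above 2-fold, 10 members were lower and none higher (edgeR, with DESeq2 also giving none at that size), where 11.8% and 11.4% of all genes tested were. At an unadjusted p below 0.05 and any size, 35 were lower and 6 higher, against 23.2% and 22.6% of all genes tested. By subunit, 15 of 50 large and 10 of 25 small subunit genes were lower. Of the 4 spermatogonia markers, 0 were lower and 1 was higher than in In/B. They summed to 1303, 1283 and 255 CPM in RA-deficient replicates 1, 2 and 3, beside 988 to 1301 CPM in In/B. Of the 7 Sertoli cell markers, 2 were higher and 0 lower. The part of these markers in the differences was not tested. The lower members of the mitochondrial family numbered 16, 12 or 15 without In/B replicate 1, 2 or 3 (10.8% to 12.8% of all genes tested). They numbered 19 or 23 without RA-deficient replicate 1 or 2 (16.8% and 15.9%) and 31 without RA-deficient replicate 3 (23.9%). The higher members numbered 2 without In/B replicate 2 or 3 (12.3% and 12.5% of all genes tested) and 3 without RA-deficient replicate 1 or 2 (15.0% each). With library sizes alone in place of TMM, 39 were lower and 2 higher (27.5% and 12.5%), as the median over all genes moved to −0.31.

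The 8 lowest were Mrpl15 (−1.45), Mrps2 (−1.40), Mrps24 (−1.36), Mrps36 (−1.34), Mrps30 (−1.26), Mrpl45 (−1.24), Mrpl28 (−1.20) and Mrpl13 (−1.15, all log2). Mrpl15, a large subunit protein (chr1:4763287-4775820, mm9, minus strand), was at 59.9, 68.6 and 66.5 CPM in In/B, 23.1, 16.8 and 25.9 CPM in RA-sufficient PL and 17.4, 22.4 and 25.5 CPM in RA-deficient PL. The 2 PL groups covered the same range, 2.73-fold below In/B for RA-deficient PL (SE 0.195 on the log2 scale, adjusted p = 0.00101) and 2.87-fold for RA-sufficient PL (adjusted p = 0.000171).

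Mrpl45, which ties the ribosome to the inner membrane, was at 59.3, 53.7 and 50.2 CPM in In/B, 27.9, 31.6 and 30.3 CPM in RA-sufficient PL and 23.7, 16.3 and 23.2 CPM in RA-deficient PL. RA-deficient PL was the lowest of the 3 groups with no overlap (log2 fold change against In/B −1.24, SE 0.204, adjusted p = 0.00253). Mrps30 was at 46.2, 40.4 and 39.0 CPM in In/B, 22.5, 18.1 and 21.5 CPM in RA-sufficient PL and 18.9, 14.5 and 14.4 CPM in RA-deficient PL. Mrps36, whose product is also described as a subunit of the 2-oxoglutarate dehydrogenase complex, was at 12.6, 15.5 and 10.0 CPM in In/B and at 3.41, 3.65 and 6.69 CPM in RA-deficient PL, a call that was lost without any library but RA-deficient replicate 3.

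The 5 members that rose were Mrpl17 (0.95), Mrpl20 (0.86), Mrps6 (0.83), Mrpl55 (0.59) and Mrpl39 (0.58, all log2), and 4 of them, all but Mrpl55, had also risen in RA-sufficient PL. The call of Mrpl39 was lost without any single library, that of Mrps6 without In/B replicate 2 or 3 or RA-deficient replicate 2, and that of Mrpl55 without In/B replicate 2 or 3 or RA-deficient replicate 1. Mrpl17, a large subunit protein with a bacterial counterpart, was at 48.2, 51.9 and 51.3 CPM in In/B, 58.9, 60.3 and 67.2 CPM in RA-sufficient PL and 89.9, 104 and 73.6 CPM in RA-deficient PL. The groups did not overlap and RA-deficient PL was highest (1.93-fold above In/B, SE 0.169 on the log2 scale, adjusted p = 0.00357). Mrpl20, whose bacterial counterpart is needed early in large subunit assembly, was at 36.0, 42.3 and 40.3 CPM in In/B, 50.3, 58.1 and 76.9 CPM in RA-sufficient PL and 53.4, 72.8 and 71.0 CPM in RA-deficient PL.

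Set side by side, the comparisons of each PL group with In/B, which share the In/B libraries, placed 25 members lower in both and 4 higher in both. The share of all genes in such joint classes was not counted, so it is not known whether these counts are unusual. Singly, 31.2% and 18.3% of all genes tested were lower in RA-sufficient and RA-deficient PL, and 33.8% and 18.4% higher. A further 15 were lower and 4 higher in RA-sufficient PL alone by the threshold, and 1 (Mrpl47) was lower and 1 (Mrpl55) higher in RA-deficient PL alone, but a call in a single comparison does not show that the PL groups differ. No member was called in opposite directions. The remaining 28 passed in neither, among them 17 large subunit genes such as Mrpl10 and Mrpl51 and 10 small subunit genes such as Mrps7 and Mrps17. Mrps33, singled out after its values were seen, was not called in RA-deficient PL in spite of a log2 difference of −1.97 (adjusted p = 0.0833), since its libraries were at 4.34, 0.361 and 1.43 CPM there and at 8.65, 9.25 and 8.43 CPM in In/B.

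**Figure D3:**
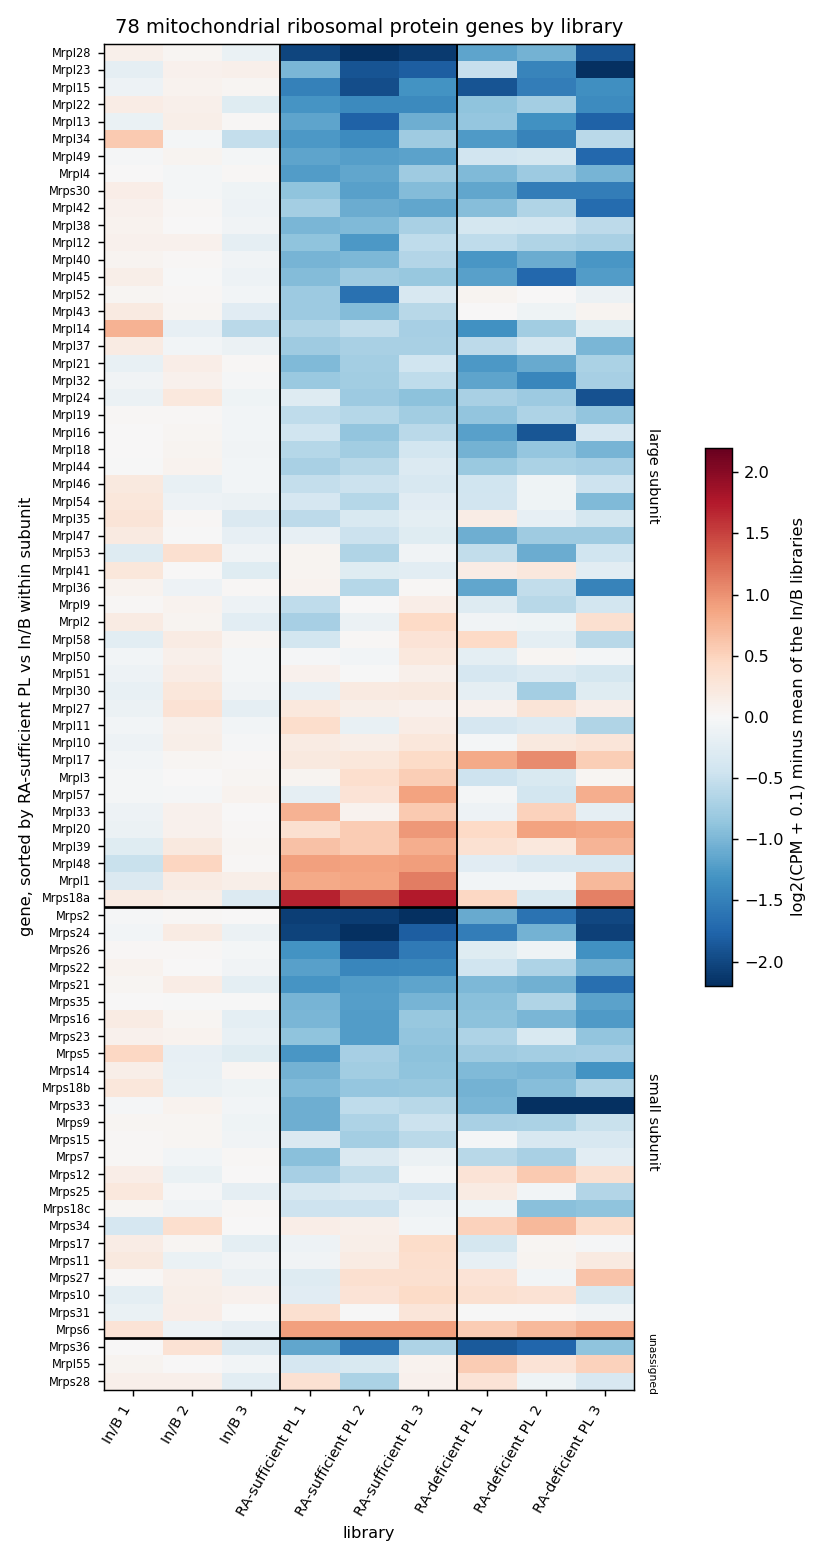
Level of each of the 78 members in the 9 libraries as log2(CPM + 0.1) minus the mean of the In/B libraries (blue lower, red higher), by subunit and sorted by the change in RA-sufficient PL. In RA-sufficient PL 40 members were lower and 8 were higher than in In/B, and in RA-deficient PL 26 were lower and 5 were higher.

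The third comparison set the PL groups directly against each other, to ask what the lack of RA changed. Of the 78 members, 1 was lower (Mrpl48) and 1 was higher (Mrpl43) in RA-deficient than in RA-sufficient PL, 1.28% each, against 12.6% lower and 11% higher of 15352 genes tested. Above 2-fold, Mrpl48 alone passed (1 lower and none higher with edgeR, 2 lower and 1 higher with DESeq2), where 11% and 4.47% of all genes tested did. The median log2 difference was −0.07 over members and −0.09 over all genes. At an unadjusted p below 0.05, 8 members were lower and 8 higher, against 19.9% and 17.6% of all genes tested. The counts were sensitive to RA-deficient replicate 3, which differed more than 2-fold from replicate 1 in 7 members and from replicate 2 in 10 (on log2(CPM + 0.1)), whereas replicates 1 and 2 differed that much in 1. Without it, 6 members were lower and 10 higher, while the shares over all genes tested also went up, to 24.2% lower and 17.7% higher. Without any other single library 1 member was lower and 0 were higher, with 5.72% to 9.18% of all genes lower and 4.02% to 6.09% higher. DESeq2 gave 6 lower and 8 higher (14.3% and 11.7% of all genes), and edgeR with library sizes alone 6 lower and 0 higher (16% and 6.18%). Spermatogonia markers (4 of 4) were higher and Sertoli cell markers (7 of 7) lower in RA-deficient PL, although Kit overlapped between the PL groups. The part of these markers in the values was not tested.

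Mrpl48, a large subunit protein of mitochondria alone (chr7:107694265-107756811, mm9, minus strand), was at 10.2, 20.02 and 14.6 CPM in In/B, 27.0, 26.6 and 27.3 CPM in RA-sufficient PL and 12.1, 11.2 and 11.3 CPM in RA-deficient PL. Replicates within each PL group lay close together and RA-deficient PL stayed in the range of In/B. The level was 2.40-fold lower in RA-deficient than in RA-sufficient PL (log2 fold change −1.26, SE 0.214, adjusted p = 0.00753). Of its exon bases 30.4% are shared on the same strand with D630004N19Rik. Mrpl43, also of mitochondria alone (chr19:45079504-45080932, mm9, minus strand), showed the opposite order, at 54.4, 49.0 and 39.7 CPM in In/B, 27.2, 24.5 and 31.0 CPM in RA-sufficient PL and 47.4, 44.0 and 49.2 CPM in RA-deficient PL. It was 1.66-fold higher in RA-deficient PL (log2 fold change 0.73, SE 0.178, adjusted p = 0.0256), a call that was kept without RA-deficient replicate 3 and lost without any other library. Exons of Mrpl43 overlap Peo1 on the opposite strand (8.0% of their bases).

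The paralog Mrps18a missed the threshold in this comparison (log2 difference −1.12, SE 0.363, adjusted p = 0.0624), although the PL groups did not overlap, and it passed under 5 of 13 alternatives. These were library sizes alone, all 9 libraries in 1 fit, DESeq2, the replicate block and the omission of RA-deficient replicate 3 (−1.52, adjusted p = 0.00519). Mrps18b (−0.02) and Mrps18c (−0.29) were not called. Of the 3 genes that had led the decrease in RA-sufficient PL, Mrps2 (0.59, adjusted p = 0.138), Mrpl28 (0.78, adjusted p = 0.0803) and Mrps24 (0.62, adjusted p = 0.283) had positive log2 differences that did not pass.

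The cytosolic family, of which 77 of 79 genes could be tested, was read from the same fits. In RA-sufficient PL 58 (75.3%) were lower than in In/B and 0 higher, against 31.2% and 33.8% of all genes tested. At an unadjusted p below 0.05 and with DESeq2, 0 were also higher. The median log2 fold change was −1.05. In RA-deficient PL 38 (49.4%) were lower and 6 (7.79%) higher, against 18.3% and 18.4% of all genes tested. The median of the cytosolic genes was −0.44, beside −0.42 for the mitochondrial members. The lower cytosolic genes numbered 25 or 24 without In/B replicate 1 or 2 (12.8% and 10.8% of all genes tested). The 6 higher ones became 2 without In/B replicate 2 or 3, 3 without RA-deficient replicate 1 or 2, 2 with all 9 libraries in 1 fit and 1 with library sizes alone. Of all genes tested, 12.3% to 16.4% were higher under these alternatives. Between the PL groups, 29 cytosolic genes (37.7%) were higher in RA-deficient PL and 0 lower (0 also unadjusted and with DESeq2), with a median of 0.47, where the mitochondrial members had 1 higher, 1 lower and a median of −0.07. The 29 became 16 with library sizes alone, 18 or 9 without RA-sufficient replicate 1 or 2, and 15 or 13 without RA-deficient replicate 1 or 2. The shares of all genes tested that were higher went down as well, to 6.18% with library sizes alone. They were 4.02% to 6.09% with 1 of these libraries left out. Whether the 2 families differ was not tested.

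**Figure D4:**
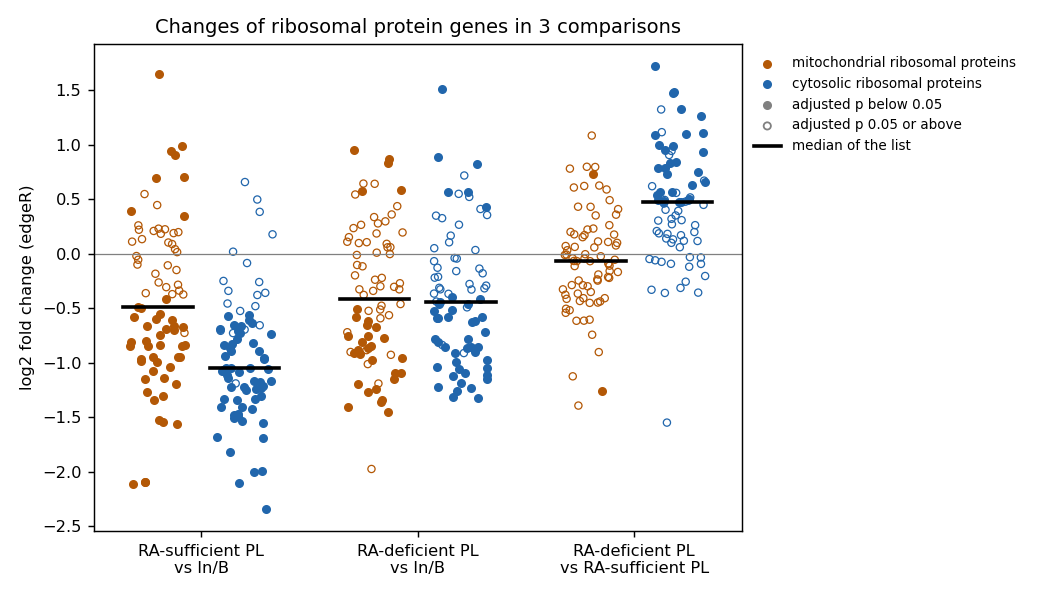
Log2 fold change of each mitochondrial (orange) and cytosolic (blue) ribosomal protein gene in the 3 comparisons, with filled points for an adjusted p below 0.05 and a black line at the median. The 2 medians were −0.49 and −1.05 when RA-sufficient PL were compared with In/B, −0.42 and −0.44 when RA-deficient PL were, and −0.07 and 0.47 between the PL groups.

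Other genes of mitochondrial translation were taken from lists, whose counts stand beside 31.2% lower and 33.8% higher of all genes tested in RA-sufficient PL, and 18.3% and 18.4% in RA-deficient PL. The 5 genes of mitoribosomal proteins with other symbols included 2 that were lower in both PL groups than in In/B, Ptcd3 (−0.94 and −0.83 on the log2 scale in RA-sufficient and RA-deficient PL) and Aurkaip1 (−1.25 and −0.90), and Chchd1, a small subunit protein that was higher in RA-sufficient PL (1.30). Of 24 assembly factors, 6 were lower and 3 higher in RA-sufficient PL, and 5 lower and 5 higher in RA-deficient PL. Tfb1m, which methylates the small subunit rRNA, rose in both (1.56 and 1.55), as did Mettl15 (1.68 and 1.42), a methyltransferase of the same rRNA. Mettl17, an assembly factor of the small subunit, was lower in both (−1.02 and −2.53) and lower in RA-deficient than in RA-sufficient PL (−1.63, adjusted p = 0.0201). Mrm1, which methylates the large subunit rRNA, rose in RA-deficient PL (1.59). The call of Mrm1 was lost without any library but RA-deficient replicate 3, and that of Mettl17 between the PL groups without any RA-sufficient library or without RA-deficient replicate 2.

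Of 10 translation factors, 3 were lower and 1 higher in RA-sufficient PL. That 1 was the initiation factor Mtif2, at 29.3, 24.0 and 20.8 CPM in In/B, 47.4, 45.3 and 48.6 CPM in RA-sufficient PL and 16.1, 12.6 and 23.2 CPM in RA-deficient PL, and it was lower in RA-deficient than in RA-sufficient PL (−1.48, adjusted p = 0.00822). Of 17 mitochondrial tRNA synthetases, 5 were lower and 3 higher in each PL group than in In/B. Aars2 was lower in both (−1.29 and −1.69), Sars2 (−1.43) and Vars2 (−1.32) were lower in RA-sufficient PL, Wars2 (−2.08) was lower in RA-deficient PL, and Tars2 rose in both (1.29 and 1.53). Between the PL groups Lars2 was lower (−1.43, adjusted p = 0.00299) and Vars2 higher (0.98, adjusted p = 0.0161) in RA-deficient PL, the latter losing its call without any library but RA-deficient replicate 3. Of 10 genes that copy and express mitochondrial DNA, 4 were lower in RA-sufficient PL, and in RA-deficient PL 1 was higher than in In/B.

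Members lay on 17 chromosomes, with 11 on chromosome 11 and 8 on chromosome 17. Exons of 27 members overlap another annotated gene, in 22 on the opposite strand. Among the members with and without such overlap, 13 of 27 and 27 of 51 were lower in RA-sufficient PL than in In/B, and 8 of 27 and 18 of 51 in RA-deficient PL. Across the 78 genes, the fold change in RA-sufficient PL had a Pearson correlation of −0.33 with the log2 level in In/B and 0.16 with log2 exon length, given as descriptions, since genes of the same libraries are not independent and the In/B level enters both terms.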

How the data were processed

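RNA was sequenced from 9 libraries, 3 for each of 3 groups assigned from the sample labels. Per the labels and the study's methods, the authors made stranded poly(A) libraries, used cutadapt 1.9 to trim the single-end reads, aligned to mm9 in STAR 2.5.2b and deposited unnormalized counts per gene from featureCounts. The gene annotation and strand setting are not given in the sources used here. Coordinates and exon lengths are from GENCODE M1 on the same build, and 0 columns of other samples were present. Promoter windows came from RefSeq (GRCm38.p6) by symbol.

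Pairs of groups were fitted on the whole table in edgeR 4.0.16 (R 4.3.3) with TMM scaling, filterByExpr, the quasi-likelihood test and Benjamini-Hochberg adjustment. SE is the absolute log2 fold change divided by the square root of F. A call needs an adjusted p below 0.05, and the 2-fold rule is that of the study. CPM values were TMM scaled over 9 libraries. n counts libraries. The study's methods speak of 2 or 3 independent cell preparations, but the labels do not tie libraries to them. The 3 libraries of a group may therefore not be 3 independent preparations, and p-values measure the spread between libraries. The floors of 3 counts cover counting error only. In each comparison the 8 lowest and 8 highest called members without overlap between groups were named, with the 3 Mrps18 paralogs, the ends of the level range and the 3 lowest and highest called genes of the other translation lists. Ptcd3, Aurkaip1, Mrps11, Mrpl46, Mrpl47, Mrps33 and the 4 examples of genes called in neither comparison are exceptions, picked with their values in view. Members and lists were chosen with earlier results of these data known. The fit was tested on simulated counts. Alternatives were RLE factors, library sizes alone, no filter, a mean of at least 50 counts, 1 fit of all 9 libraries, DESeq2 1.42.0, a replicate block and leaving out each library.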

Additional observations from a re-analysis of the deposited data

Results flagged for a closer look

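Between the PL groups, 2 members changed differently from In/B with and without RA, by the direct comparison of RA-deficient with RA-sufficient PL. Mrpl48 differed by a log2 value of −1.26 and passed under all 13 alternatives, including the omission of each library. Mrpl43 differed by 0.73 and missed the threshold under 7 of 13, among them library sizes alone, the replicate block and the omission of any library but RA-deficient replicate 3.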

How the results depend on the processing

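With 1 choice changed at a time, the members' medians against In/B stayed negative throughout. With RA-sufficient PL compared to In/B, leaving out a library gave 31 to 37 lower and 6 to 10 higher members. The shares over all genes tested were then 27.0% to 31.2% and 29.9% to 33.6%. The 2-fold rule gave 14 and 1 (19.3% and 26.1% of all genes tested). With RA-deficient PL compared to In/B, the 26 lower members became 12 to 31 without a library (lowest without In/B replicate 2) and 10 by the 2-fold rule. The shares over all genes tested were 10.8% to 23.9% and 11.8%. The 5 higher members became 2 to 5 without a library (12.3% to 20.7% of all genes tested) and 2 with library sizes alone (12.5%). They became 3 with all 9 libraries in 1 fit (16.4%) and 0 by the 2-fold rule (11.4%). The median of −0.42 became −0.74 with library sizes alone and −0.55 with all 9 libraries, but −0.42 and −0.44 relative to the median of all genes. Between the PL groups, the 1 lower member became 6 with library sizes alone, 5 with all 9 libraries, 6 with DESeq2 and 1 to 6 without a library. The 1 higher member became 2 with RLE factors, 0 with library sizes alone, 9 with all 9 libraries, 8 with DESeq2, 0 by the 2-fold rule and 0 to 10 without a library (10 without RA-deficient replicate 3). That median of −0.07 became −0.25 with library sizes alone, −0.037 with all 9 libraries and −0.131 to −0.006 without a library. Mrps18b, at −0.02 there, changed sign to 0.008 with all 9 libraries and ranged from −0.129 to 0.071 without a library. Apart from the construction of each alternative, the cause was not tested.

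Replicate numbers were not treated as pairs in the main fits. Deviations from group means correlated between −0.253 and 0.118 for equal numbers. Unequal numbers were not compared, so these values do not settle whether the libraries are paired. With a replicate block the lower and higher members numbered 31 and 6, 20 and 3, and 3 and 0 in the 3 comparisons. The shares over all genes tested were 28.1% and 30.6%, 16.2% and 16.1%, and 9.09% and 8.47%. Over 55 named gene results and 715 alternatives, 634 kept direction and side of the threshold, 72 lost and 6 gained a call, and 3 changed sign. Depth limits Mrpl23 and Mrps33 most, with a fall to 0.361 CPM in RA-deficient replicate 2 for Mrps33.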
